A study of Rattus norvegicus with 2 samples.

Results

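The genes described here are Mbp, Pmp22, Pmp2, Cldn19, Mal and Mag, 6 protein genes of the myelin that Schwann cells wrap around axons, chosen by symbol from the 32623 genes of the files. Each symbol had exactly 1 row. Sprague-Dawley rats gave their cochlear duct cells on postnatal day 1 (P1) or postnatal day 7 (P7), and these were sequenced as 1 droplet library per age with a 3′ kit that attaches a unique molecular identifier (UMI) to each captured transcript. The labels state no treatment or allele, and the animals were pooled before capture, so neither animals nor sexes can be told apart. With 1 library per age there is no replicate check. The ages were compared without a test, and intervals are exact at the 95% level and cover counting error only. The age cannot be told apart from the library.

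A myelinating Schwann cell spirals its membrane around 1 axon and removes the cytoplasm between the turns. In compact myelin the extracellular faces are held together by adhesion proteins and the cytoplasmic faces by basic proteins such as Mbp and Pmp2. Non-compact regions at the paranodes and incisures hold junction proteins such as Cldn19 and adhesion proteins such as Mag that face the axon. In the cochlea, Schwann cells accompany the peripheral fibres of the spiral ganglion neurons, whose myelin forms after birth in rodents.

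The libraries held 14068 barcodes at P1 and 14501 at P7, where the labels state an aim of 5000 cells each, with 114285848 and 101264868 UMIs in all. After the limits on cells, 12779 and 12581 cells remained, with medians of 6565 and 6878 UMIs. The labels name greater epithelial ridge cells, but the cluster led by epithelial markers held only 272 cells at P1 and 213 at P7. Of all barcode sequences, 60 occurred in both libraries, and 23 kept cells with such a sequence lay in the Schwann-like clusters.

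The Schwann-like cells were 1653 cells at P1, or 12.9% of the kept cells, and 2863 cells at P7, or 22.8%. They formed 2 of 25 clusters, of which 1 held 1633 P1 cells and 51 P7 cells and the other 20 P1 cells and 2812 P7 cells, so different clusters held most of the class at each age. None of the 6 myelin genes served in clustering or naming, which rested on markers such as Sox10, Erbb3 and Prx. Levels are given as CPM, the UMIs of a gene per 1000000 UMIs of the class. Markers of oligodendrocytes, the myelin-forming glia of the brain, were near 0, since none of 9 such genes reached 10 CPM in the Schwann-like cells and their summed level was 2.26 CPM at P1 and 2.91 CPM at P7. Markers of melanocytes, which also arise from the neural crest, summed to 124 CPM at P1 and 56.3 CPM at P7, and those of neurons to 196 and 61.3 CPM. Other sums were higher at P7, with macrophage markers at 11.2 and 56.7 CPM, erythroid markers at 142 and 320 CPM and epithelial markers at 36.3 and 83.0 CPM. Their part in the values below was not tested. A further 611 P1 cells and 1256 P7 cells lay in 5 mixed clusters, in which Schwann markers were raised beside those of dividing cells or neurons, or in which many cells were called doublets. The remaining 10515 and 8462 cells are called other cells.

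For 3 of the genes the upstream sequence is shown: Cldn19 and Mag because Cldn19 was the gene whose pattern over the clusters was most like that of Mag, and Pmp22 because it was widely found outside the Schwann-like cells. Each line gives the 250 bases before the gene start on the strand of the gene, from RefSeq on the build GRCr8, at chr5:138148325-138148574 for Cldn19 on the plus strand, chr1:95291045-95291294 for Mag on the minus strand and chr10:48294682-48294931 for Pmp22 on the plus strand. Capitals mark the letters ACAAAG or ACAATG (cores bound by SOX factors), GTGGGCG (an EGR-type core) or TATAAA on either strand.
Cldn19: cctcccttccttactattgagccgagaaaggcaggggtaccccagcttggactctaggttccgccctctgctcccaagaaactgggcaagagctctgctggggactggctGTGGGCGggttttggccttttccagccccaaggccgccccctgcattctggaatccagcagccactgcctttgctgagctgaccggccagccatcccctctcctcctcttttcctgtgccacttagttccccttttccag
Mag: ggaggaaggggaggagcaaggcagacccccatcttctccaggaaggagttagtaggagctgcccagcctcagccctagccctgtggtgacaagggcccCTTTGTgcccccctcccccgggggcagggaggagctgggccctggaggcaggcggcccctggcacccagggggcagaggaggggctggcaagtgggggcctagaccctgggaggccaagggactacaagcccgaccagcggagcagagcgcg
Pmp22: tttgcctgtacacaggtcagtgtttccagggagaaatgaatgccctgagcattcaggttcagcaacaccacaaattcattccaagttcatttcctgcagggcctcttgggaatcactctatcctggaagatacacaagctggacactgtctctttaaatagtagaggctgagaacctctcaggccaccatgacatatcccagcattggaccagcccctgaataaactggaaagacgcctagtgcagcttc
The Cldn19 window held GTGGGCG beginning 140 bases before the start, a string that 6.27% of 33469 such windows hold. The Mag window held ACAAAG on the other strand beginning 152 bases before the start, as did 16.3% of all windows. None of these strings occurred in the Pmp22 window, and ACAATG and TATAAA, found in 11.1% and 12.9% of all windows, were in none of the 3. These matches describe the letters and are not shown to be bound. The G and C share was 60.0% for Cldn19, 70.0% for Mag and 48.0% for Pmp22, against a median of 51.2%.

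Over all kept cells, each of the 6 genes was at least 2-fold higher at P7. Among 8222 genes past a minimum of 10 CPM and 50 UMIs in the higher library, 9.74% were as much higher and 6.57% as much lower. The median log2 ratio of the 6 genes was 2.07, against 0.13 over all genes. In a sum over cells, a larger share of Schwann-like cells and more RNA of a gene per cell cannot be told apart, and that share was 22.8% at P7 against 12.9% at P1. The values within the Schwann-like cells are therefore given gene by gene. The mix of cells within that class also differed between the ages, as given below.

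Within the Schwann-like cells 5 of the 6 genes were at least 2-fold higher at P7, the exception being Mal. Of 7534 genes past the minimum, 10.3% were as much higher and 9.8% as much lower. The median log2 ratio of the 6 was 1.22, against 0.11 over all genes. Scaling that sets the median gene to 0 left 3 of the 6 past 2-fold, Cldn19, Mag and Mbp, and so did a total without mitochondrial, ribosomal and haemoglobin genes, with all 6 still higher at P7.

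Among the genes of compact myelin, Mbp, which encodes myelin basic protein and seals the cytoplasmic faces of the membrane, stood at 1124 CPM at P1 (interval 1101 to 1147) and 2903 CPM at P7 (2876 to 2930), a ratio of 2.58 (2.53 to 2.64). Pmp22, a tetraspan membrane protein of compact myelin whose gene dosage underlies common inherited neuropathies, stood at 3635 CPM and 7595 CPM, a ratio of 2.09 (2.06 to 2.12). Pmp2, a fatty acid binding protein of the cytoplasmic face, stood at 403 CPM and 819 CPM, a ratio of 2.03 (1.96 to 2.11). All 3 were higher at P7 by more than the counting error, and the interval of Pmp2 reached below 2-fold.

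Cldn19, a claudin of Schwann cell tight junctions, differed most of the 6. It stood at 54.9 CPM at P1 (50.03 to 60.2) and 293 CPM at P7 (284 to 302), a ratio of 5.33 (4.84 to 5.88), the rank 40 among the 7534 genes. Mag, the myelin-associated glycoprotein that faces the axon, stood at 24.5 CPM (21.3 to 28.1) and 83.9 CPM (79.4 to 88.7), a ratio of 3.42 (2.95 to 3.98) and the rank 159. Mal, a proteolipid that takes part in sorting membrane to the myelin sheath, stood at 307 CPM (296 to 319) and 436 CPM (426 to 447), a ratio of 1.42 (1.36 to 1.49) and the rank 2123. Mbp ranked 327, Pmp22 670 and Pmp2 737.

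**Figure D1:**
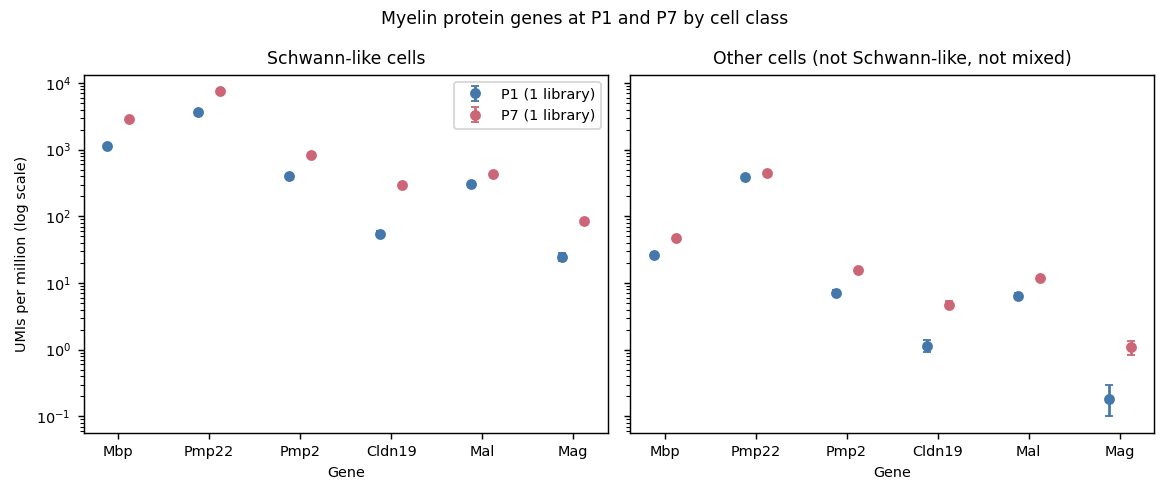
Level of each gene in CPM (log axis) in the Schwann-like cells (left) and in the other cells (right), with blue points for the P1 library, red points for the P7 library and bars for exact 95% counting intervals. Each P7 point lies above its P1 point in both panels, with the smallest gaps for Mal on the left (307 and 436) and Pmp22 on the right (384 and 453).

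A few cells carried much of the P1 level of Mag and Cldn19, and the P7 UMIs were also concentrated, as given below. The 20 P1 cells that fell in the mostly P7 cluster held 46.1% of the Mag UMIs of all Schwann-like P1 cells and 31.2% of the Cldn19 UMIs, against 6.48% for Mal and 7.51% for Pmp22. With each library's own cluster compared, a choice made after the data were seen, Mag stood at 13.5 CPM in 1633 P1 cells and 84.6 CPM in 2812 P7 cells, a ratio of 6.28 (5.17 to 7.69). For Cldn19 the ratio was then 7.66 (6.83 to 8.61), for Mbp 2.79, for Pmp2 2.47, for Pmp22 2.23 and for Mal 1.497. This choice leaves out the P1 cells richest in these genes, so the larger ratios follow from it and say nothing of stability.

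The rest of the myelin genes were compared by lists. Of 8 measured genes of myelin structure past the minimum, 5 (62.5%) were at least 2-fold higher at P7 and none as much lower, where 10.3% and 9.8% of all genes were. Among them was Prx, a scaffold of the outer membrane, at 35.2 CPM at P1 and 188 CPM at P7. Of 12 genes of myelin lipid synthesis 4 (33.3%) were at least 2-fold higher, among them Fa2h, which hydroxylates the fatty acids of myelin galactolipids, at 20.5 and 63.7 CPM. Of 6 genes of axon contact 1 (16.7%) was at least 2-fold higher, Gldn, a ligand that gathers nodal proteins, at 11.4 and 71.9 CPM. Smaller ratios above 1 beyond counting error were those of Itgb4, at 1.32 (1.24 to 1.40), Lama2, at 1.12 (1.04 to 1.21), and Dag1, at 1.10 (1.05 to 1.15). Below 1 beyond counting error were Nrcam of the axon contact list, at 0.501 (0.41 to 0.61), and Cadm4 of the structure list, at 0.67 (0.61 to 0.75). Prx, Fa2h and Gldn, like Sox10, Egr2 and Ngfr of the lists that follow, were also markers for naming the clusters, and the mostly P7 cluster was led by the markers of myelinating cells and the mostly P1 cluster by those of the lineage, so their levels are not independent of the class.

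Of 7 regulators of myelination 3 (42.9%) were at least 2-fold higher, where 10.3% of all genes were. Sox10, the lineage factor of Schwann cells, was among them, at 151 and 354 CPM. Pou3f2, a POU factor, had a ratio of 1.34 (1.25 to 1.44). Zeb2, of the same list, was lower at P7, with a ratio of 0.52 (0.49 to 0.55). Egr2, a factor that drives myelin genes, was at 95.1 and 102 CPM, a log2 ratio of 0.10 (-0.03 to 0.22). Of 10 genes of immature Schwann cells 6 (60%) were at least 2-fold lower at P7, where 9.8% of all genes were. None was as much higher, where 10.3% of all genes were. Among the 6 were Jun, a factor of the immature and repair states, at 940 and 379 CPM, and Ngfr, the low-affinity neurotrophin receptor, at 30.7 and 15.3 CPM. Jun and Ngfr were also lower at P7 in the other cells, at 665 and 378 CPM and at 10.0 and 1.88 CPM. So were the rest of those 6, with ratios there of 0.31 for Fabp7, 0.44 for Cdh2, 0.34 for Scn7a and 0.60 for Gfra3. Of 5 relatives of the 6 genes past the minimum, such as Emp3, a homologue of Pmp22, at 225 and 222 CPM, none was 2-fold higher or lower. So few genes cannot set this count apart from the shares over all genes.

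To compare detection at 1 depth, each cell was thinned to 2000 UMIs, which left out 36 P1 and 154 P7 Schwann-like cells. Pmp22 was found in 96.9% of the Schwann-like cells at P1 and 98.0% at P7, near the ceiling at both ages. Mbp was found in 68.5% (66.1 to 70.7) and 80.5% (78.9 to 82.0). Pmp2 was found in 34.7% (32.4 to 37.1) and 56.4% (54.5 to 58.2). Pmp2, unlike Pmp22, was thus missing from many Schwann-like cells at this depth.

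Cldn19 was found in 5.19% (4.16 to 6.39) of thinned cells at P1 and 22.4% (20.9 to 24.1) at P7. Mag was found in 2.10% (1.46 to 2.93) and 6.87% (5.94 to 7.88). Mal was found in 36.7% (34.4 to 39.1) and 39.5% (37.6 to 41.3), intervals that overlap. Without thinning the shares at P1 and P7 were 10.3% and 33.3% for Cldn19, 4.84% and 12.1% for Mag, 58.0% and 61.9% for Mal, 79.2% and 88.9% for Mbp, 50.6% and 71.9% for Pmp2, and 98.7% and 99.5% for Pmp22.

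More of the genes were found together at P7. A UMI of 4 or more of the 6 genes was present in 246 of 1617 thinned Schwann-like cells at P1, or 15.2%, and in 866 of 2709 at P7, or 32.0%. All 6 were present in 11 cells (0.680%) at P1 and 83 cells (3.06%) at P7. The most frequent set at P1 was Mbp with Pmp22 and no other, in 24.1% of cells, and at P7 it was Mbp, Pmp22 and Pmp2, in 18.4%. Among the other cells none of 10317 at P1 and none of 8013 at P7 held all 6, which at the limit of 3 counts allows shares of up to 0.0291% and 0.0374%.

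**Figure D2:**
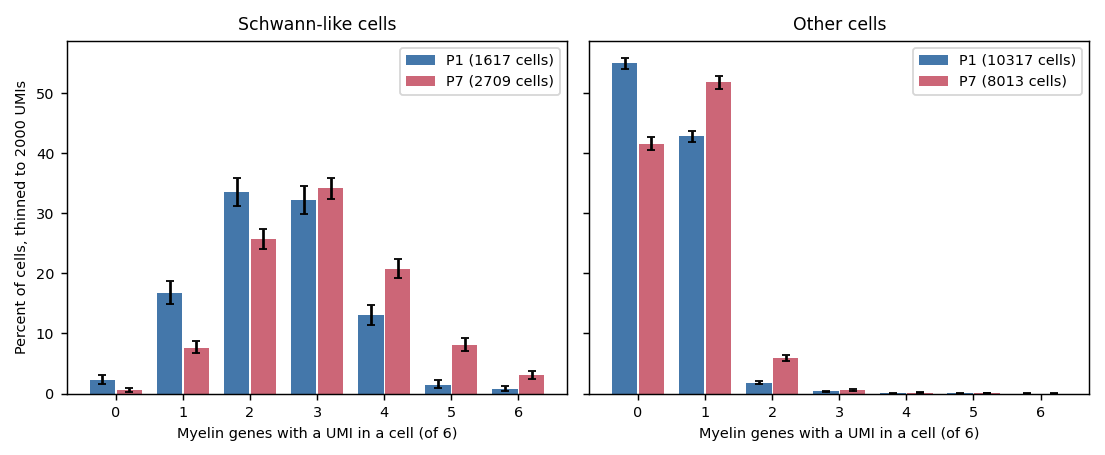
Percent of cells (vertical axis), after thinning to 2000 UMIs, in which 0 to 6 of the myelin genes had a UMI (horizontal axis), for the Schwann-like cells (left) and the other cells (right), with blue bars for P1, red bars for P7 and lines for exact 95% intervals. The Schwann-like bars for 4, 5 and 6 genes are taller at P7, and over 41% of the other cells had none at either age.

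Cldn19 and Mal were found more often in cells with Mag than in cells without. At P7 Cldn19 was found in 73.1% (66.1 to 79.3) of the 186 cells with Mag and in 18.7% (17.2 to 20.3) of those without. At P1 it was found in 47.1% (29.8 to 64.9) of the 34 cells with Mag and in 4.30% (3.35 to 5.41) of those without. Mal was found in 74.7% of the cells with Mag at P7 and in 36.9% of those without. At P7 Pmp2 differed less, with 65.6% (58.3 to 72.4) of the cells with Mag and 55.7% (53.7 to 57.6) of those without. At P1 Pmp2 was found in 55.9% (37.9 to 72.8) of the cells with Mag and 34.2% (31.9 to 36.6) of those without. For Mal the P1 values were 64.7% (46.5 to 80.3) and 36.1% (33.8 to 38.6).

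The UMIs were unevenly spread over the Schwann-like cells. The 10% of cells with the most Mbp UMIs held 42.2% of them at P1 and 63.0% at P7, for Pmp22 the shares were 36.4% and 57.7%, and for Mal 46.5% and 58.5%. The share was smaller at P7 for Pmp2, at 60.2% and 49.6%, for Cldn19, at 98.9% and 72.2%, and for Mag, at 100% and 95.3%. For Cldn19 and Mag the P1 share was set by detection, since about 10% of cells or fewer had any UMI of either gene. More cells had a UMI of them at P7, so their shares do not compare the spread between the ages.

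Integration of the libraries put cells of both ages into the same clusters. A cluster led by myelinating markers, IC11, held 185 P1 and 586 P7 cells, and the largest Schwann-like cluster, IC0, held 1418 and 2159. Mbp stood at 1869 CPM at P1 and 6559 CPM at P7 in IC11, and at 1001 and 1417 CPM in IC0. The log2 ratio of Pmp22 was 1.53 (1.497 to 1.57) in IC11 and 0.28 (0.25 to 0.30) in IC0. Mal, in contrast, stood at 339 and 845 CPM in IC11 and at 291 and 265 CPM in IC0. In IC0 only Cldn19 was at least 2-fold higher at P7, at 3.37, with Pmp2 at 1.84, Mag at 1.77 and Mbp at 1.42. In IC11 Cldn19 (4.30), Mbp (3.51), Pmp22 (2.89) and Mal (2.49) were, and Pmp2 (1.88) and Mag (1.90) were not. IC11 held 185 of 1758 Schwann-like cells at P1 and 586 of 2977 at P7. Over the whole class, the share of such cells and the level per cell cannot therefore be told apart.

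Cldn19 was higher at P7 in each of the 3 integrated Schwann-like clusters, with log2 ratios of 2.10, 1.75 and 1.74. The log2 ratio of Pmp2 lay between 0.81 and 0.91 in all 3. Mag stood at 120 and 227 CPM in IC11 and at 13.3 and 23.6 CPM in IC0. With 30 principal components the strongest cells formed a cluster, PC24, of 16 P1 and 188 P7 cells. There Pmp22 stood at 26308 CPM at P1 and 31980 CPM at P7, Mbp at 9464 and 13510 CPM, and Mal at 1691 and 1879 CPM. The other genes were lower at P7 in this cluster, Pmp2 at 5520 and 1503 CPM, Mag at 1035 and 614 CPM, and Cldn19 at 1441 (1254 to 1648) and 1279 (1228 to 1331) CPM, where the intervals overlap. The P1 levels of PC24 rest on 16 cells, and the intervals do not cover differences between cells. The 188 P7 cells of PC24 held 25139 Mbp, 59509 Pmp22, 2796 Pmp2, 2380 Cldn19, 3496 Mal and 1142 Mag UMIs. The Schwann-like cluster PC0, with 2853 P7 cells, held 25315, 72634, 11062, 2800, 3927 and 327. Mbp stood at 982 CPM in the 1641 P1 cells of the Schwann-like cluster PC4 and at 1725 CPM in PC0 at P7. In that order Pmp22 stood at 3295 and 4950 CPM, Pmp2 at 319 and 754 CPM, and Cldn19 at 30.3 and 191 CPM. Mag stood at 9.26 and 22.3 CPM, and Mal at 289 and 268 CPM.

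**Figure D3:**
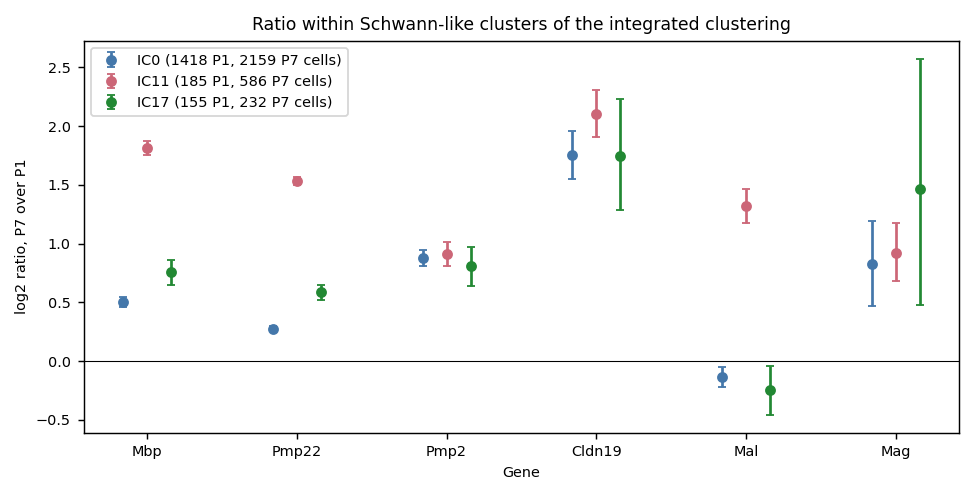
log2 ratio of P7 to P1 (vertical axis) for each gene within the 3 Schwann-like clusters of the integrated libraries, with bars for exact 95% counting intervals and a line at 0. Mbp, Pmp22 and Mal have higher points in IC11 than in IC0 and IC17, Pmp2 has nearly the same in all 3, and Mal lies below 0 in IC0 (-0.14) and IC17 (-0.25).

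Outside the Schwann-like and mixed clusters, Pmp22 was found in a larger share of the pooled cells than any of the other 5 genes. The ratios to Mbp given below gave no such division by class, since they were uneven over the classes for Mal as well as for Pmp22. After thinning, Pmp22 was found in 43.6% of other cells at P1 and 53.9% at P7, and these cells held 42.8% of the Pmp22 UMIs of all kept cells at P1 and 15.4% at P7. Mbp was found in 2.51% and 6.93%, Pmp2 in 0.727% and 2.46%, Mal in 0.640% and 1.95%, Cldn19 in 0.136% and 0.811%, and Mag in 0.0291% and 0.125%. Their median depths were 6762 UMIs at P1 and 7264 at P7, against 4184 and 4524 in the Schwann-like cells. The part of free RNA in the low shares of the 5 genes was not tested, and they were not read as expression.

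The other 5 genes were also set against Mbp, a comparison chosen after the data had been seen. Per 100 Mbp UMIs the other cells held 1440 Pmp22 UMIs at P1, which was 4.45 times (95% interval from the 4 counts 4.24 to 4.67) the value in the Schwann-like cells. At P7 they held 947, which was 3.62 times (3.48 to 3.76). The pooled value hides unlike classes. The factor was 21.1 (15.97 to 28.0) in P1 mesenchyme-like cells, from few Mbp UMIs, and 1.07 (1.01 to 1.14) in P1 neuron-like cells. At P7 it was 4.93 (4.499 to 5.40) in mesenchyme-like, 0.93 (0.82 to 1.05) in macrophage-like and 0.43 (0.36 to 0.51) in endothelial-like cells. Cldn19 stood at 0.87 times (0.69 to 1.09) its Schwann-like ratio at P1 and at 0.98 times (0.87 to 1.11) at P7, and both intervals held 1. At P1, 65 of its 95 UMIs lay in neuron-like cells. At P7 its factor was 0.21 (0.09 to 0.51) in endothelial-like cells, from 5 UMIs, and 1.31 (1.04 to 1.64) in fibrocyte-like cells. The intervals of the other P7 classes held 1. Pmp2 was at 0.75 times (0.68 to 0.83) at P1 and 1.18 times (1.10 to 1.27) at P7, and Mag, from 15 UMIs at P1, at 0.31 times (0.18 to 0.52) and 0.78 times (0.62 to 0.998).

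Mal stood at 0.88 times (0.80 to 0.98) its Schwann-like ratio to Mbp at P1 and at 1.65 times (1.52 to 1.79) at P7. These pooled values do not compare the ages, since the neuron-like cluster, with no cell at P7, held 1577 of the 2236 Mbp UMIs of the other cells at P1. The factor was not even over the classes at either age. At P1 it was 8.003 (5.77 to 11.1) in epithelium-like, 2.05 (1.47 to 2.86) in macrophage-like and 0.56 (0.48 to 0.64) in neuron-like cells. At P7 it was 3.19 (2.78 to 3.67) in fibrocyte-like cells, 2.52 (2.01 to 3.17) in epithelium-like cells, 1.203 (0.87 to 1.67) in endothelial-like cells and 0.93 (0.72 to 1.198) in mesenchyme-like cells. A ratio to Mbp moves with Mbp as well as with the gene set against it.

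**Figure D4:**
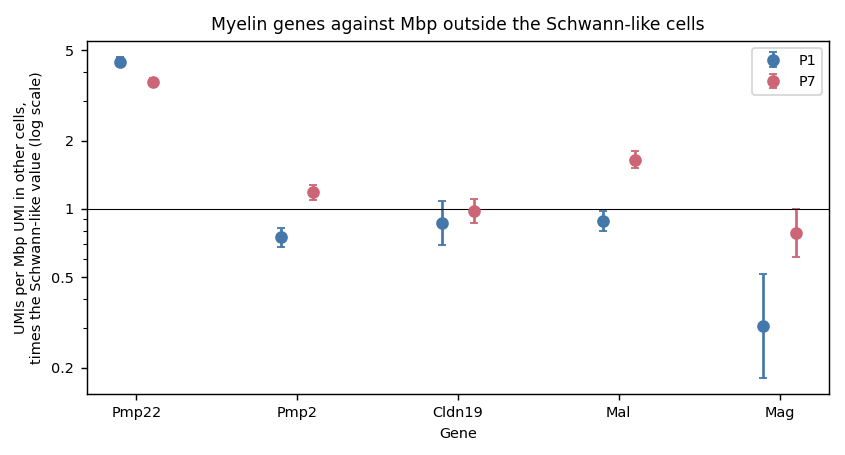
UMIs of each gene per Mbp UMI in the other cells, as a multiple of the same ratio in the Schwann-like cells of that library (log axis, with a line at 1), for P1 (blue) and P7 (red) with 95% counting intervals. Pmp22 stands at 4.45 and 3.62, Mal at 0.88 and 1.65, and the intervals of Cldn19 cross 1 at both ages. At P1 most of the Mbp UMIs (1577 of 2236) came from the neuron-like cluster.

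Clusters of other cells were compared where a library had 50 or more cells in them. The highest Mbp at P1 was 260 CPM in the neuron-like cluster, with a median of 10.5 CPM over 11 clusters. At P7 it was 267 CPM in the macrophage-like cluster, with a median of 38.9 CPM over 12 clusters, and 14.2% of the cells of that cluster were called doublets. Pmp22 had a median of 359 CPM over the clusters at P1 and 451 CPM at P7, and its lowest cluster at P1 stood at 110 CPM. Mal reached 50.04 CPM in the epithelium-like cluster at P1. The part of doublets in these values was not tested.

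Over the 33 pools of 1 cluster in 1 library, the pattern of Mbp was nearest to that of Pmp2 (Pearson r of log2(CPM + 5) 0.98), and Pmp2 was nearest to Sptssa (0.99). Mag was nearest to Cldn19 (0.89), Fa2h (0.87) and Gldn (0.87). Prx (0.96) and Kif19 (0.95) were among the 5 genes most like Cldn19. Mal was nearest to Erbb3 (0.96), Egfl8 (0.96) and Gal3st1 (0.96). Pmp22 was nearest to Pnlip (0.93) and Insc (0.93). Each was compared with 12589 genes. The pools share 2 libraries and their depths, so these values describe likeness only. Among the 6 genes the lowest value was that of Mal with Mag, 0.76, and the highest that of Mbp with Pmp2.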

How the data were processed

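The authors aligned the reads to rat genome rn6 with Cell Ranger 3.1.0, per the file headers and the methods, and deposited raw UMI counts. How they treated doublets or free RNA is not given in the sources used here. Following the study, barcodes stayed in with a gene number above 500 and below 5000, 500 or more UMIs, and a mitochondrial share below 25%. These limits left cell numbers per library that differ from those the study states. Groups follow the age in the labels. Both libraries were merged and clustered with Seurat 5.3.0 (R 4.3.3) on 1865 variable genes, all listed genes left out, 10 principal components, 20 neighbours and resolution 0.8. Scrublet (scanpy 1.11.5) marked doublets, which were left out in an alternative only.

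A marker list led a cluster if 3 or more of its genes had UMIs in 10% or more of the cells and if its mean log2 ratio against all cells outside, 1 or more, exceeded that of each other list. It was called Schwann-like only with at most 50% doublet calls. Both rules were settled after the clusters had been seen. A Schwann-like cluster also needed, among its most raised genes, at least as many Schwann markers as markers of any other list, and few haemoglobin genes. Through these further rules a cluster led by myelinating markers, with 42.3% doublet calls, was classed as mixed. Levels (CPM) are UMIs per 1000000 UMIs of a class. Ratios of P7 to P1 carry exact conditional binomial intervals, levels exact Poisson and shares Clopper-Pearson intervals (scipy 1.17.1). These assume independent molecules. The 6 genes and all lists were chosen with earlier results of these data known. Genes named are the 6, the genes of the lists, and for each of the 6 the 5 genes most alike over pools of at least 50 cells, among genes with at least 200 UMIs; not all of these, nor a planned comparison with a reference gene, are reported here. Alternatives were other clusterings, a gate of at least 3 of 8 Schwann markers, other limits on cells, other thinning depths, other scalings and other minimums. Ratios to Mbp carry log-normal intervals from the 4 counts. The ratio intervals and the thinning were tested on simulated counts. These were drawn independently, with no difference between cells in the share of a gene. The other steps were not tested in this way.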

Additional observations from a re-analysis of the deposited data

Results flagged for a closer look

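The change of Mal between the ages took opposite directions in clusters of the integrated libraries. The log2 ratio of P7 to P1 was 1.32 in IC11, the cluster led by myelinating markers, and -0.14 in IC0 and -0.25 in IC17, where the interval stayed below 0 in both. With 1 library per age the difference between clusters was not tested.

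The 6 genes also had UMIs in the barcodes that the limits on cells removed, 1289 at P1 and 1920 at P7, above the level that 3 counts would give (0.184 CPM and 0.367 CPM). At P1 and P7 the levels there were 167 and 326 CPM for Mbp, 670 and 944 CPM for Pmp22, 48.5 and 97.1 CPM for Pmp2, 7.06 and 33.4 CPM for Cldn19, 33.9 and 60.4 CPM for Mal, and 1.78 and 11.4 CPM for Mag.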

How the results depend on the processing

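In the Schwann-like cells the median log2 ratio of the 6 genes was 1.27 at resolution 1.2 and 1.28 with 30 principal components, 1.65 with cells under 10% mitochondrial UMIs, 1.38 with a marker gate in place of clusters, 1.15 without mitochondrial, ribosomal and haemoglobin genes in the total, 1.11 with median of ratios scaling and, in alternatives chosen after seeing the data, 1.17 with mixed clusters added and 1.39 with each library's own cluster, which leaves out the P1 cells richest in these genes. Over all cells it was 1.98 and 1.96 under those scalings, 2.28 with cells under 10% mitochondrial UMIs and 2.01 with all barcodes. The median share of Schwann-like cells with a UMI, 35.7% at P1 and 47.9% at P7, was 22.6% and 32.4% when thinned to 1000 UMIs, 54.5% and 70.3% at 4000, 31.1% and 44.3% with the gate, 32.9% and 45.4% with mixed clusters added, and 32.9% at P1 under 10% mitochondrial UMIs. The share of cells with 4 or more of the genes was, in the same order, 5.33% and 16.1%, 34.7% and 61.1%, 12.1% and 27.6%, 12.8% and 28.5%, and 13.0% and 35.6%. Each of the 6 genes stayed higher at P7 in both cell sets under every alternative run, and the count past 2-fold in Schwann-like cells fell from 5 to 4 with mixed clusters added and to 3 under both scalings. Over all genes, 778 were 2-fold higher and 738 lower, against 261 and 212 with a minimum of 50 CPM, 1867 and 2382 with no minimum, and 431 and 422 with a pseudocount of 5 CPM. The ratios to Mbp in other cells kept their side of 1 with doublet calls left out, except that of Cldn19 at P7 (1.02). The cause of these shifts was not tested. No paired analysis was possible because each age has 1 library. The counts of Mag (206 UMIs in Schwann-like P1 cells, 15 in other P1 cells) limit what can be said of it.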
